A study of Mus musculus with 9 samples.

Results

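Semaphorins, plexins and neuropilins form a family of guidance ligands and receptors, and all 31 genes sought by their mouse symbols were found by Entrez identifier among the 18755 genes of the deposited count table: 20 semaphorins, 9 plexins and 2 neuropilins. They were measured in RNA of 9 primary tumors, grown in female BALB/c mice that were 6 to 10 weeks old when 1000000 4T1 cells were injected into the mammary fat pad. 4T1 is a metastatic mammary cancer cell line from a BALB/c mouse, so that every tumor descends from the same line and host cells of an immune-competent mouse grow in among the tumor cells. From day 15 after injection and for 5 days, the vehicle, 0.5% Natrosol, was given for 3 of the tumors, and BI 853520, an inhibitor of focal adhesion kinase (FAK), was given by mouth at 50 mg/kg for the other 6. The question the comparison addresses is how tumor gene expression differed after FAK inhibition. The members were chosen as a family by name, with no threshold on values, but at a time when the BI 853520 against vehicle results were already known. All changes below are therefore a description of that contrast, and no test was made over the family.

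Semaphorins are secreted or membrane-bound proteins first known for steering growing axons, and they also act on endothelial cells, leukocytes and tumor cells. Plexins are their transmembrane receptors, whose cytoplasmic part acts on small GTPases and thereby on the cytoskeleton and on integrin adhesion. Most class 3 semaphorins, which are secreted, bind a neuropilin, which pairs with a plexin of the A group or with plexin D1, whereas Sema3e can bind plexin D1 directly. Neuropilins also bind members of the VEGF family and act as co-receptors of the VEGF receptors.

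Of the 30 members with enough counts to be tested, 7 rose and 4 fell after BI 853520 treatment with p-values from edgeR's quasi-likelihood test, adjusted over 13966 genes after Benjamini and Hochberg, of 0.05 or less. The 11 called members were 36.7% of those tested, beside 28.7% of all genes tested. By direction, 23.3% of the members rose beside 14.6% of all genes, and 13.3% fell beside 14.1%. Sema6a, Plxnb3, Sema4f, Nrp1, Sema7a, Sema4a and Plxnd1 rose, and Sema3e, Nrp2, Sema4g and Plxna3 fell. The median log2 fold change was 0.16 over the members and -0.0037 over all genes tested, and the median size of the change, regardless of direction, was 0.31 and 0.19. In 9 of the 30 members tested, beside 28.1% of all genes tested, the groups did not overlap, with every BI 853520-treated tumor above all vehicle-treated tumors in 5 members (14.1% of all genes) and below them in 4 (14.0% of all genes). At the cutoffs used in the study, an unadjusted p of at most 0.05 and a change of about 1.5-fold, 6 members were higher, beside 9.59% of all genes, and 2 were lower, beside 3.57%. Together these were 26.7% of the members and 13.2% of all genes.

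**Figure D1:**
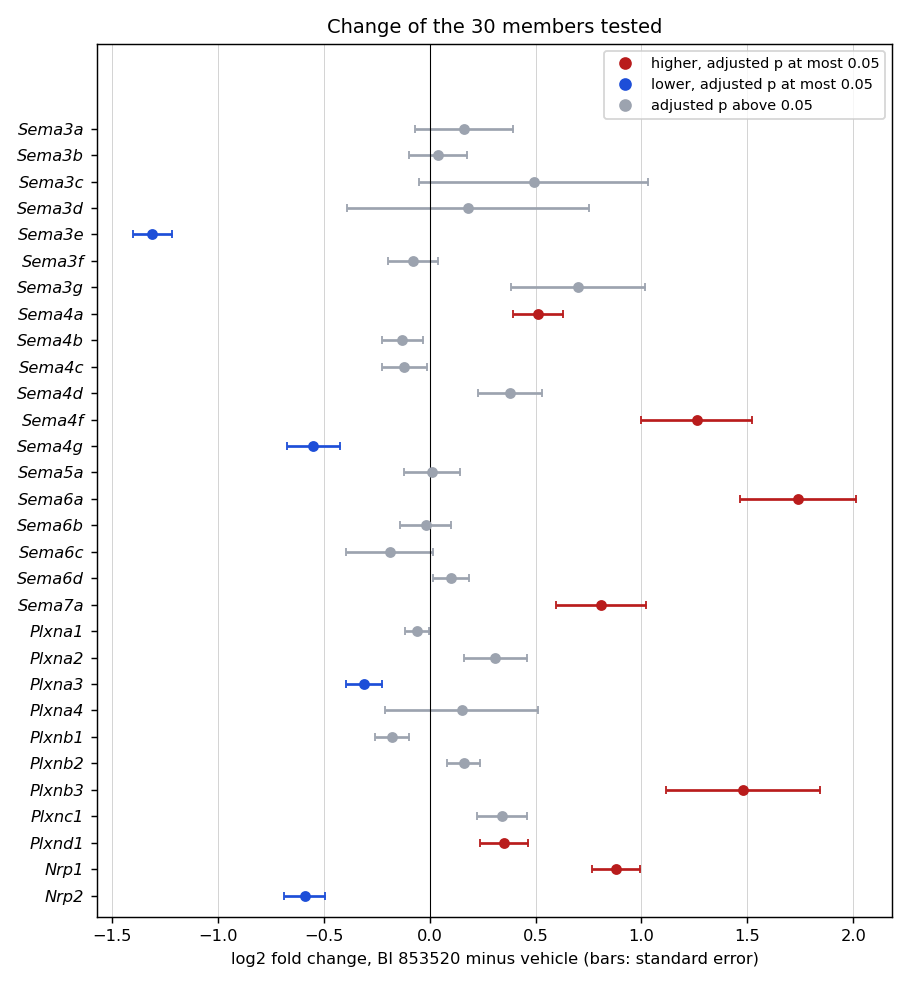
Log2 fold change of BI 853520-treated over vehicle-treated tumors for the 30 members tested, with the standard error as bars, colored by the call at an adjusted p of at most 0.05. Sema6a lies farthest to the right at 1.74 and Sema3e farthest to the left at -1.31.

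The total counts on genes were 21727879 to 33850245 per vehicle-treated tumor, with vehicle replicate 3 the deepest library, and 16931607 to 22349873 per BI 853520-treated tumor. Together, the members took 0.228% to 0.285% of the counts of a tumor. A count of 3 corresponded to 0.0883 to 0.174 CPM (counts per 1000000 on the normalized library size), a floor that covers counting error only. No pair of libraries agreed within sampling noise, with a mean chi-square per gene of at least 8.83 in every pair where counting error alone gives a value of 1. The sources used here name no batch. Because whole tumor pieces were sequenced, fewer cells of a type and less RNA per cell cannot be told apart in any value below.

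Both members of the neuropilin family and the ligand and receptor pair Sema3e and Plxnd1 moved in opposite directions. Their promoters, from 250 bases before to 50 bases after the RefSeq start on GRCm38.p6, are shown because these 4 genes carry the contrasts described below, 5′ to 3′ on the gene's own strand. The windows are chr5:14025026-14025325 on the plus strand for Sema3e, chr6:115994956-115995255 on the minus strand for Plxnd1, chr8:128358823-128359122 on the plus strand for Nrp1 and chr1:62703067-62703366 on the plus strand for Nrp2. Capitals mark matches on either strand to a GC box (GGGCGG), an E-box (CACGTG), a TEAD motif (CATTCC), an AP-1 motif (TGANTCA) or a CCAAT box (CCAAT).
Sema3e: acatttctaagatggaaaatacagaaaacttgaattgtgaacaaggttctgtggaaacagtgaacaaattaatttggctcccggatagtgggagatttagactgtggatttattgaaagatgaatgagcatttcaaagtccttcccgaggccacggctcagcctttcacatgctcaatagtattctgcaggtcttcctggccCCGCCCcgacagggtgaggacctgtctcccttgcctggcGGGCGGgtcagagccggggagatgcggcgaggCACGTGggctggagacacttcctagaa
Plxnd1: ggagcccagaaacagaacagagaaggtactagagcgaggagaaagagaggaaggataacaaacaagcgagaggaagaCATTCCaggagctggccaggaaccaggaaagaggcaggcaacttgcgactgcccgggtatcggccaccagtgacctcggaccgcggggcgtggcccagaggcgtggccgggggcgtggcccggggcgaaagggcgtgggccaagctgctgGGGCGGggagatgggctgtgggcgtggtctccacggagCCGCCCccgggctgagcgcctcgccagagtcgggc
Nrp1: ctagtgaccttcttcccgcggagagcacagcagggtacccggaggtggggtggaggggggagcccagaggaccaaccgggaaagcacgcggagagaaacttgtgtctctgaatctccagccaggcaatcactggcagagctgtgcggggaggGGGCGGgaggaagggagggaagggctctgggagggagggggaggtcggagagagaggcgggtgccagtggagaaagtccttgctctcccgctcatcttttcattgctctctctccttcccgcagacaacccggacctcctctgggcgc
Nrp2: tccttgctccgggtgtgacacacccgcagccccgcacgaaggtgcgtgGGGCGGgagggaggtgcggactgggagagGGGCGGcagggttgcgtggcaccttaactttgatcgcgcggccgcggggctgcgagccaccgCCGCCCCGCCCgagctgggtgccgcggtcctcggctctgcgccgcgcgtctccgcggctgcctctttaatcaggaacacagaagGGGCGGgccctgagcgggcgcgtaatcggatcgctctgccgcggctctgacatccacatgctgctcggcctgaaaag

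All 4 promoters held a GC box, with 5 matches in Nrp2, of which a neighboring pair shares a base, 2 matches each in Sema3e and Plxnd1 and 1 match in Nrp1. Of the 32851 promoters in the RefSeq table, 35.7% held at least 1 GC box. The E-box of Sema3e was found in 7.15% of all promoters, and the TEAD motif of Plxnd1 in 14.7%. The AP-1 and CCAAT letters, found in 7.81% and 37.4% of all promoters, did not occur in these 4 windows. The base composition separated Sema3e, with 50.7% G and C, from Nrp1 (64.0%), Plxnd1 (67.0%) and Nrp2 (70.7%), where the median promoter had 52.7%. Such matches describe the letters of the window only. Of the 31 members, 26 had a promoter in the table.

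Levels were compared between genes as RPKM, the CPM divided by the deposited gene length in kilobases. Averaged over the 9 tumors, Sema3f, a secreted ligand that binds neuropilin 2, had the highest level in the family with 87.5 ± 2.69 RPKM in vehicle-treated and 82.6 ± 13.4 RPKM in BI 853520-treated tumors. It was followed by Plxnb2 with a mean of 61.2 RPKM, Sema4c with 59.3 RPKM, Sema7a with 48.1 RPKM and Sema3e with 32.7 RPKM. In vehicle-treated tumors, Plxnb2 and Sema4c, a transmembrane ligand of plexin B2, overlapped in RPKM. Sema3e, at 50.1 to 57.0 RPKM, lay above Sema7a, at 24.4 to 41.5 RPKM, in the vehicle-treated tumors. The order was the opposite in BI 853520-treated tumors, with Sema3e at 19.5 to 25.3 RPKM and Sema7a at 36.1 to 70.5 RPKM. Of the 31 members, 15 had a mean of at least 10 RPKM and 9 had less than 1 RPKM. The members below 1 RPKM were Plxna2, Sema6c, Sema4f, Sema3c, Sema3g, Plxnb3, Plxna4, Sema3d and Sema5b. Sema5b had between 0 and 12 counts per tumor, did not pass the filter on low counts and was not tested. The 20 semaphorins summed to 320 to 350 RPKM in vehicle-treated and 264 to 374 RPKM in BI 853520-treated tumors, and the 9 plexins to 117 to 127 and 120 to 152 RPKM.

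**Figure D2:**
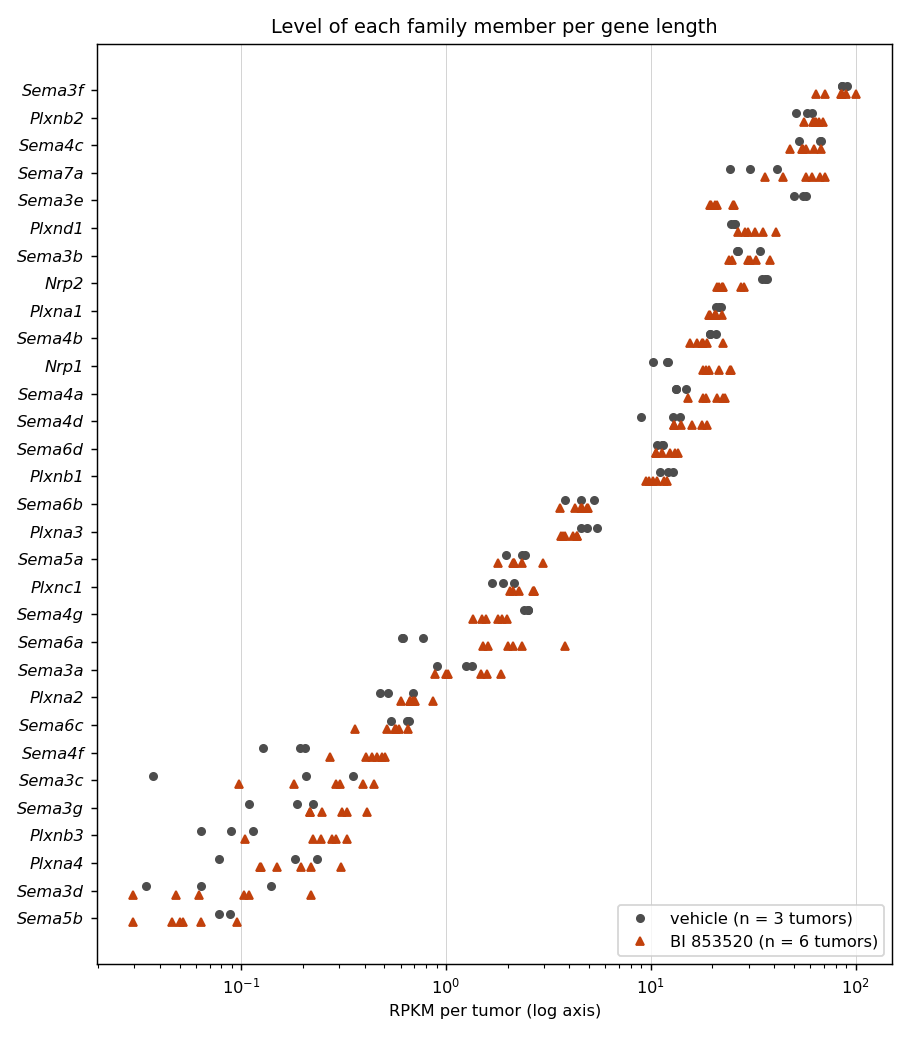
RPKM of each member in each tumor on a log axis, with circles for the 3 vehicle-treated and triangles for the 6 BI 853520-treated tumors, ordered by the mean. Sema3f is at the top and Sema5b at the bottom, and the single value of 0 (Sema5b in vehicle replicate 1) cannot be drawn on this axis.

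Among the 7 secreted class 3 ligands, Sema3e fell and the other 6 were not called. Sema3e (Entrez gene 20349, chromosome 5 of mm9 from 14025276 to 14256689, plus strand) encodes a ligand of plexin D1 known from the patterning of blood vessels. It had 391, 343 and 381 CPM in vehicle replicates 1 to 3, and between 134 and 174 CPM with a median of 143 in the 6 BI 853520-treated tumors. The groups lay far apart, and the gap between them was wider than the range within either group. The means were 372 ± 25.2 CPM (SD, n = 3) in vehicle-treated and 150.5 ± 18.3 CPM (SD, n = 6) in BI 853520-treated tumors, a fall of 2.47-fold (a log2 change of -1.31 with SE 0.0917, edgeR adjusted p = 8.76e-06). The share of Sema3e in the summed RPKM of all semaphorins was 14.3% to 17.4% in vehicle-treated and 5.82% to 7.47% in BI 853520-treated tumors.

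Sema3f, which had the highest level in the family, had 293, 307 and 291 CPM in vehicle replicates 1 to 3, and between 216 and 342 CPM with a median of 289.5 in the 6 BI 853520-treated tumors. The treated tumors lay on both sides of the vehicle-treated tumors (a log2 change of -0.08 with SE 0.119, edgeR adjusted p = 0.638). Sema3b, whose product also binds neuropilins, was similar, with 100.0 ± 15.5 CPM (SD, n = 3) in vehicle-treated and 103 ± 17.7 CPM (SD, n = 6) in BI 853520-treated tumors and a log2 fold change of 0.04 (SE 0.136, edgeR adjusted p = 0.845). Sema3a, the ligand of neuropilin 1 first known for collapsing growth cones, had 8.49 ± 1.7 CPM (SD, n = 3) in vehicle-treated and 9.51 ± 2.84 CPM (SD, n = 6) in BI 853520-treated tumors and a log2 fold change of 0.16 (SE 0.231, edgeR adjusted p = 0.636). Sema3c, Sema3d and Sema3g were scarce, between 4 and 39 counts per tumor. The log2 changes of Sema3c and Sema3d were 0.49 (SE 0.542, edgeR adjusted p = 0.528) and 0.18 (SE 0.572, edgeR adjusted p = 0.845), with standard errors larger than the changes. The log2 fold change of Sema3g, an endothelial ligand, was 0.70 (SE 0.315, edgeR adjusted p = 0.114), and it passed the cutoffs of the study with an unadjusted p of 0.0455.

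Of the 6 class 4 semaphorins, which are transmembrane proteins that can be shed, Sema4a and Sema4f rose, Sema4g fell and 3 were not called. Sema4a (Entrez gene 20351, chromosome 3 of mm9 from 88239881 to 88265104, minus strand), known on myeloid and dendritic cells as a costimulator of T cells, had 45.7, 51.5 and 46 CPM in vehicle replicates 1 to 3, and between 52.3 and 79.7 CPM with a median of 68.4 in the 6 BI 853520-treated tumors. All 6 treated tumors lay above the vehicle-treated tumors, the lowest of them by a small margin (a log2 change of 0.51 with SE 0.119, edgeR adjusted p = 0.00788). Sema4f (Entrez gene 20355, chromosome 6 of mm9 from 82861879 to 82889763, minus strand) stayed scarce, with 0.642, 1.03 and 0.972 CPM in vehicle replicates 1 to 3, and between 1.36 and 2.51 CPM with a median of 2.25 in the 6 BI 853520-treated tumors. These values rest on 14 to 33 counts in vehicle-treated and 26 to 54 counts in treated tumors, and the groups did not overlap (a log2 change of 1.26 with SE 0.26, edgeR adjusted p = 0.00402). Sema4g (Entrez gene 26456, chromosome 19 of mm9 from 45063591 to 45077887, plus strand) had 10.3, 10.8 and 10.8 CPM in vehicle replicates 1 to 3, and between 5.82 and 8.55 CPM with a median of 7.24 in the 6 BI 853520-treated tumors. Every treated tumor lay below the narrow range of the vehicle-treated tumors (a log2 change of -0.55 with SE 0.124, edgeR adjusted p = 0.00669).

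The 3 class 4 ligands that were not called were more abundant than Sema4f and Sema4g. Sema4c had 258, 256 and 202 CPM in vehicle replicates 1 to 3, and between 182 and 258 CPM with a median of 214 in the 6 BI 853520-treated tumors, with overlapping groups (a log2 change of -0.12 with SE 0.107, edgeR adjusted p = 0.423). Sema4b had 78.6 ± 3.33 CPM (SD, n = 3) in vehicle-treated and 71.9 ± 9.59 CPM (SD, n = 6) in BI 853520-treated tumors and a log2 fold change of -0.13 (SE 0.0972, edgeR adjusted p = 0.348). Sema4d, the ligand of plexin B1 and CD72 known from lymphocytes, had 52 ± 11.3 CPM (SD, n = 3) in vehicle-treated and 67.7 ± 11 CPM (SD, n = 6) in BI 853520-treated tumors, with 4 of 6 treated tumors above every vehicle-treated tumor and a log2 fold change of 0.38 (SE 0.152, edgeR adjusted p = 0.0813). DESeq2 gave Sema4d an adjusted p of 0.0474, the lowest of its alternatives, whose highest was 0.315.

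Of the class 5 to 7 ligands, Sema6a and Sema7a rose. Sema6a (Entrez gene 20358, chromosome 18 of mm9 from 47395252 to 47528524, minus strand), a transmembrane ligand of plexins A2 and A4, had 4.26, 4.2 and 5.3 CPM in vehicle replicates 1 to 3, and between 10.5 and 26.3 CPM with a median of 14.2 in the 6 BI 853520-treated tumors. The groups did not overlap, and BI replicate 3 stood above the other treated tumors. The means were 4.59 ± 0.618 CPM (SD, n = 3) in vehicle-treated and 15.4 ± 5.76 CPM (SD, n = 6) in BI 853520-treated tumors, a rise of 3.34-fold and the largest change in the family (a log2 change of 1.74 with SE 0.274, edgeR adjusted p = 0.000782). Sema6a remained low for its length, with 0.666 ± 0.0896 RPKM in vehicle-treated and 2.24 ± 0.836 RPKM in BI 853520-treated tumors. The other class 6 ligands were not called: Sema6d, the ligand of plexin A1, had 72.7 ± 2.58 CPM (SD, n = 3) in vehicle-treated and 78.1 ± 8.32 CPM (SD, n = 6) in BI 853520-treated tumors, and Sema6b and Sema6c had log2 fold changes of -0.02 (SE 0.119, edgeR adjusted p = 0.914) and -0.19 (SE 0.203, edgeR adjusted p = 0.526). Sema5a, a ligand of plexin B3, had 24.2 ± 2.61 CPM (SD, n = 3) in vehicle-treated and 24.4 ± 4.26 CPM (SD, n = 6) in BI 853520-treated tumors, and its log2 change was 0.01 (SE 0.133, edgeR adjusted p = 0.979).

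Sema7a (Entrez gene 20361, chromosome 9 of mm9 from 57787920 to 57810671, plus strand) encodes the membrane-anchored ligand of plexin C1 and of integrins with the beta 1 chain, known from monocytes and T cells. It had 79.9, 136 and 100 CPM in vehicle replicates 1 to 3, and between 118 and 231 CPM with a median of 195 in the 6 BI 853520-treated tumors. In 5 of 6 treated tumors, Sema7a was above every vehicle-treated tumor, while BI replicate 1 lay below vehicle replicate 2. The means were 105 ± 28.3 CPM (SD, n = 3) in vehicle-treated and 184 ± 44.1 CPM (SD, n = 6) in BI 853520-treated tumors (a log2 change of 0.81 with SE 0.214, edgeR adjusted p = 0.0153). This call was lost without vehicle replicate 1 or 3 (adjusted p = 0.0777 and 0.0656 from edgeR's quasi-likelihood test). Over all alternatives, the adjusted p of Sema7a ranged from 0.0015, from edgeR's likelihood ratio test, to that 0.0777. Sema7a took 7.3% to 11.8% of the semaphorin RPKM in vehicle-treated and 13.7% to 21.0% in treated tumors.

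Of the 9 plexins, Plxnb3 and Plxnd1 rose, Plxna3 fell and 6 were not called. Plxnd1 (Entrez gene 67784, chromosome 6 of mm9 from 115904829 to 115945023, minus strand), the receptor of Sema3e on endothelial cells, had 176, 171 and 177 CPM in vehicle replicates 1 to 3, and between 184 and 281 CPM with a median of 215 in the 6 BI 853520-treated tumors. The vehicle-treated tumors lay close together and below every treated tumor (a log2 change of 0.35 with SE 0.114, edgeR adjusted p = 0.0373). The call of Plxnd1 was lost in 5 of the 9 fits that left out a tumor, those without any of the 3 vehicle-treated tumors, BI replicate 3 or BI replicate 5, with adjusted p of 0.0527 to 0.109 (edgeR). Plxnb3 (Entrez gene 140571, chromosome X of mm9 from 71002429 to 71017853, plus strand), the receptor of Sema5a, was scarce, at 11 to 37 counts per tumor, with 0.688, 0.537 and 0.383 CPM in vehicle replicates 1 to 3, and between 0.628 and 1.97 CPM with a median of 1.58 in the 6 BI 853520-treated tumors. In 5 of 6 treated tumors it was above every vehicle-treated tumor, and BI replicate 5 lay within the vehicle range (a log2 change of 1.48 with SE 0.363, edgeR adjusted p = 0.0102). Without vehicle replicate 3, the deepest library, the adjusted p of Plxnb3 was 0.0611 (edgeR, range 0.00049 to 0.0611 over its alternatives).

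Plxna3 (Entrez gene 18846, chromosome X of mm9 from 71574405 to 71590028, plus strand), a receptor that pairs with neuropilins, had 33.9, 37.9 and 31.7 CPM in vehicle replicates 1 to 3, and between 25.3 and 30.3 CPM with a median of 27.7 in the 6 BI 853520-treated tumors. All treated tumors lay below the vehicle-treated tumors, the nearest by a small margin (a log2 change of -0.31 with SE 0.0839, edgeR adjusted p = 0.018). Without vehicle replicate 2, its adjusted p was 0.0941 (edgeR), and the lowest over its alternatives was 0.0065 (DESeq2). Plxnb2, the plexin with the highest level and a receptor of Sema4c, had 402, 336 and 379 CPM in vehicle replicates 1 to 3, and between 368 and 454 CPM with a median of 418 in the 6 BI 853520-treated tumors. In 5 of 6 treated tumors Plxnb2 was above every vehicle-treated tumor (a log2 change of 0.16 with SE 0.077, edgeR adjusted p = 0.139). Plxna1 stayed within a narrow range, 193 ± 5.54 CPM (SD, n = 3) in vehicle-treated and 185 ± 9.4 CPM (SD, n = 6) in BI 853520-treated tumors, with a log2 fold change of -0.06 (SE 0.0563, edgeR adjusted p = 0.423). Plxnb1, the receptor of Sema4d, had 103 ± 7.48 CPM (SD, n = 3) in vehicle-treated and 91.3 ± 8.47 CPM (SD, n = 6) in BI 853520-treated tumors and a log2 fold change of -0.18 (SE 0.08, edgeR adjusted p = 0.114). For Plxnc1, the receptor of Sema7a on leukocytes, the values were 13.4 ± 1.6 CPM (SD, n = 3) in vehicle-treated and 16.9 ± 2.1 CPM (SD, n = 6) in BI 853520-treated tumors and the log2 fold change was 0.34 (SE 0.119, edgeR adjusted p = 0.0505). Plxnc1 was close to the threshold and passed it under 8 of 17 alternatives. Over all 17, its adjusted p ranged from 0.0307 (DESeq2) to 0.209 (edgeR, without vehicle replicate 3). Plxna2 and Plxna4 had log2 fold changes of 0.31 (SE 0.149, edgeR adjusted p = 0.134) and 0.15 (SE 0.36, edgeR adjusted p = 0.784). In the GENCODE annotation, exons of Plxna1, Plxna4 and Plxnb1 overlap an exon of another gene on the opposite strand, and whether the counting used strand is not given in the sources used here.

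The neuropilins moved in opposite directions. Nrp1 (Entrez gene 18186, chromosome 8 of mm9 from 130882973 to 131029362, plus strand), the co-receptor of Sema3a and of VEGF-A, had 71.3, 71.5 and 60.5 CPM in vehicle replicates 1 to 3, and between 107 and 145 CPM with a median of 121 in the 6 BI 853520-treated tumors. Every treated tumor lay well above the vehicle-treated tumors, and the means were 67.8 ± 6.28 CPM (SD, n = 3) in vehicle-treated and 125 ± 17.1 CPM (SD, n = 6) in BI 853520-treated tumors, a rise of 1.84-fold (a log2 change of 0.88 with SE 0.112, edgeR adjusted p = 0.000206). Nrp2 (Entrez gene 18187, chromosome 1 of mm9 from 62749859 to 62865269, plus strand), the co-receptor of Sema3f and of VEGF-C, had 292, 284 and 301 CPM in vehicle replicates 1 to 3, and between 171 and 232 CPM with a median of 182 in the 6 BI 853520-treated tumors. Here every treated tumor lay below the vehicle-treated tumors, and the means were 292 ± 8.78 CPM (SD, n = 3) in vehicle-treated and 195 ± 26.5 CPM (SD, n = 6) in BI 853520-treated tumors, a fall of 1.5-fold (a log2 change of -0.59 with SE 0.0974, edgeR adjusted p = 0.0011). An exon of the microRNA gene Mir1903 overlaps an exon of Nrp1 on the same strand.

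**Figure D3:**
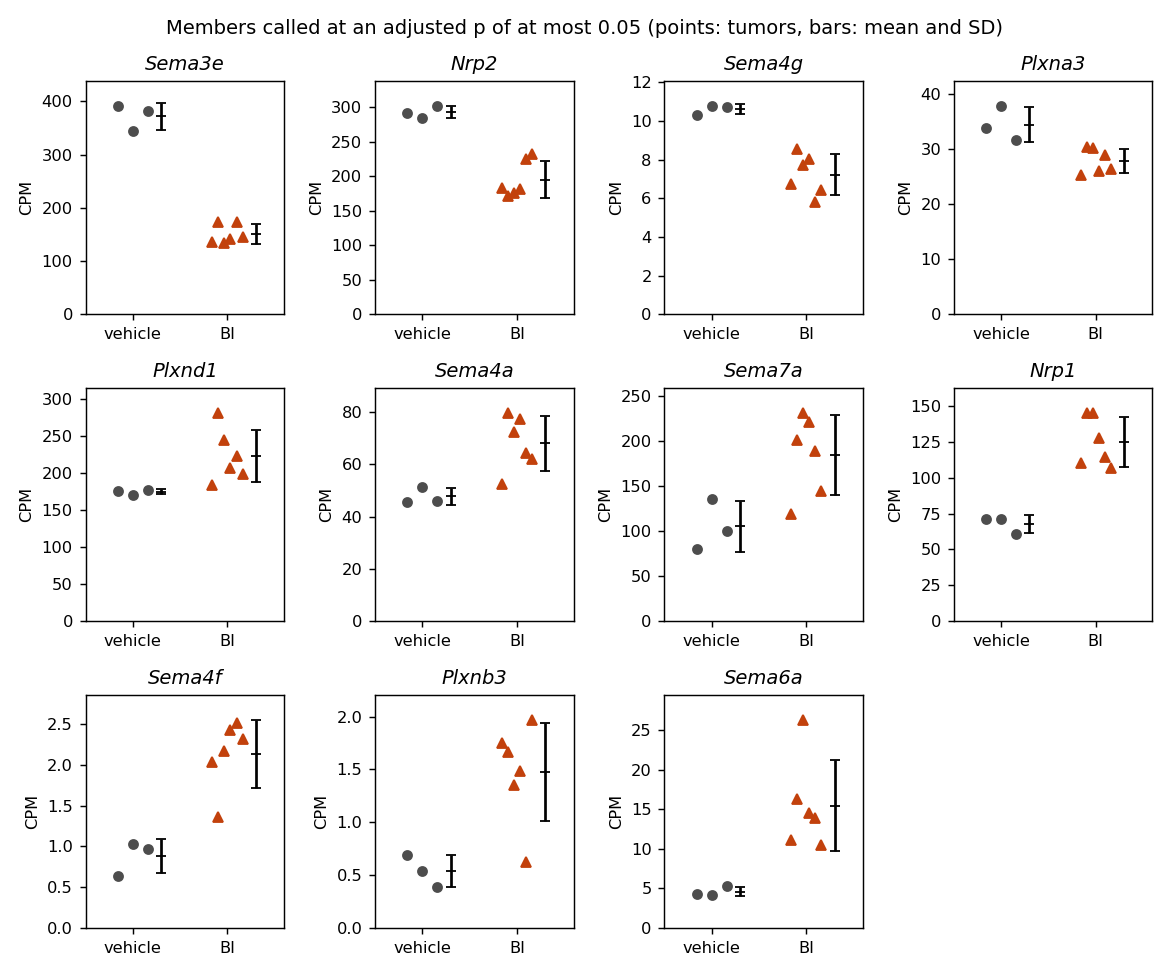
Normalized expression (CPM, axes from 0) of the 11 members called at an adjusted p of at most 0.05, ordered from the largest fall to the largest rise, with points for tumors and bars for the mean and SD. The groups overlap in Sema7a and Plxnb3 and are separate in the other 9.

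The balance of the receptors, and of Sema3e and its receptor, was also compared within each tumor, as a description with no test. The genes of each pair had moved in opposite directions without overlap, so that separate ratios follow from the changes above. The ratio of Nrp1 to Nrp2, in RPKM, was 0.335, 0.346 and 0.276 in vehicle replicates 1 to 3 and between 0.632 and 1.16 with a median of 0.896 in treated tumors. Nrp1 thus made up 21.6% to 25.7% of the neuropilin RPKM in vehicle-treated and 38.7% to 53.7% in treated tumors. The sum of both neuropilins lay between 47.0 and 48.0 RPKM in vehicle-treated and between 41.3 and 47.0 RPKM in treated tumors, so that the highest treated tumor was just below the vehicle range. The ratio of Sema3e to its receptor Plxnd1 was 2.24, 2.03 and 2.17 in vehicle replicates 1 to 3 and between 0.554 and 0.784 with a median of 0.712 in treated tumors. In every vehicle-treated tumor the ligand had the higher RPKM, and in every treated tumor the receptor did.

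**Figure D4:**
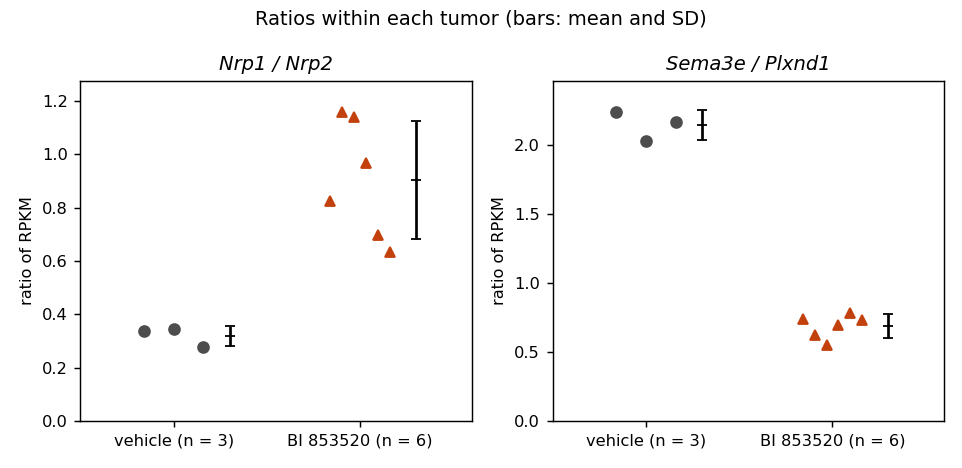
Ratio of RPKM within each tumor for Nrp1 over Nrp2 and for Sema3e over Plxnd1, with points for tumors and bars for the mean and SD. The treated tumors reach at least 0.632 in the first ratio, where vehicle-treated tumors end at 0.346, and at most 0.784 in the second, where vehicle-treated tumors start at 2.03.

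The 6 treated tumors differed among themselves in how far the members departed from the vehicle level. BI replicates 2 and 3 ranked first and second in Nrp1, Sema6a and Plxnd1, in either order, whereas BI replicates 1 and 6 were the lowest pair in these 3 genes, in Sema4a and in Sema7a. Nrp1 was at 145 CPM in both BI replicates 2 and 3, and 111 and 107 CPM in BI replicates 1 and 6. Plxnb3 followed another order, with BI replicates 6 and 1 at 1.97 and 1.75 CPM and BI replicate 5 at 0.628 CPM. Nrp2 was highest among treated tumors in BI replicates 6 and 5, at 232 and 225 CPM, and between 171 and 183 CPM in the other 4. These rankings were noted after the values had been seen.

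**Figure D5:**
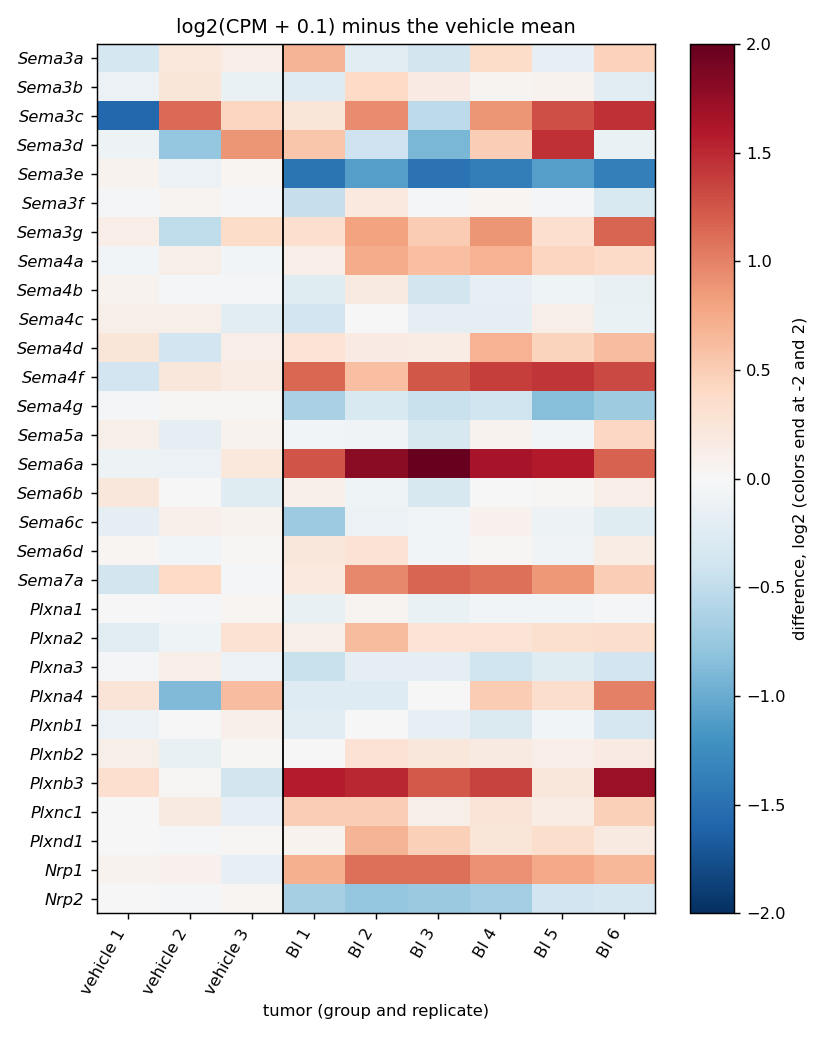
Difference of log2(CPM + 0.1) from the mean of the vehicle-treated tumors for the 30 members tested, by tumor. Sema3e, Nrp2 and Sema4g are low and Sema6a, Sema4f and Nrp1 high across all 6 treated tumors. Plxnb3 is high in 5 of the 6, while most other rows stay near the vehicle mean.

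Other genes of semaphorin signaling were described from lists, with no test over a list. The counts from this and the following lists stand beside 14.6% of all genes tested that rose and 14.1% that fell. Of 34 plexin effectors tested (of 36 listed), 6 rose and 3 fell, with a median log2 fold change of 0.02. Together these were a share close to the 28.7% of all genes called. The 3 with the smallest p among those that rose were Fyn, a Src family kinase that binds plexins A, with a log2 fold change of 0.55 (adjusted p = 0.000139, edgeR), Limk1, a kinase of cofilin, with 0.59 (0.000661), and Fes, a tyrosine kinase in Sema3a signaling, with 0.43 (0.000763). Those that fell were Rras2, a Ras GTPase, with -0.39 (adjusted p = 0.000749, edgeR), Mical3, a flavoprotein monooxygenase of the MICAL family, with -0.37 (0.00823), and Farp1, an exchange factor for Rac, with -0.25 (0.0128). Of 14 co-receptors and other semaphorin receptors tested (of 15), 5 rose and 2 fell, with a median of 0.08. For Met, the receptor of hepatocyte growth factor and a partner of plexins B, the levels were 155 ± 12.4 CPM in vehicle-treated and 73.1 ± 8.0 CPM in treated tumors (log2 fold change -1.08, adjusted p = 1.86e-05, edgeR). Erbb2, another partner of plexins B, fell by 0.31 on the log2 scale (adjusted p = 0.00686, edgeR). Tyrobp, Trem2 and Cd72 rose, with log2 fold changes of 0.67, 0.77 and 0.65 (adjusted p = 3.84e-05, 0.000247 and 0.0184, edgeR); Trem2 and Tyrobp form a myeloid receptor complex that associates with plexin A1, and CD72 is a receptor of Sema4d.

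Of the 5 VEGF family ligands, Vegfb fell (log2 fold change -0.33, adjusted p = 0.00337, edgeR) and the other 4, among them Vegfa, were not called. Of 6 proteases that cleave semaphorins, Mmp14 and Adam10 rose, with log2 fold changes of 0.55 and 0.32 (adjusted p = 0.000814 and 0.0323, edgeR). Furin, which cleaves class 3 semaphorins, was not called, with 235 ± 12.8 CPM in vehicle-treated and 234 ± 16.5 CPM in treated tumors (edgeR adjusted p = 0.971).

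Marker genes of cell types moved with the treatment as well, and their part in the changes of the members was not tested. Of 10 macrophage markers, 9 rose, and their summed RPKM was 1055 to 1363 in vehicle-treated and 2263 to 2691 in treated tumors. Of 13 endothelial markers, 5 rose, with sums of 81.6 to 95.4 and 92.8 to 131 RPKM. Of 8 dendritic cell markers, 5 rose (27.5 to 34.5 and 47.0 to 74.7 RPKM), and of 11 T cell markers, 10 rose (48.7 to 52.3 and 86.9 to 125 RPKM). Of 8 neutrophil markers tested, 4 fell (1005 to 1449 and 358 to 672 RPKM), and 2 of these, S100a8 and S100a9, made up most of the sum. The uncalled Csf3r, Camp, Ltf and Mmp8 had log2 fold changes of -0.24, -0.3, 0.3 and 0.21. None of these lists had a marker at 0 in any tumor. Among lymphatic endothelial markers, Prox1 was at 0 in 3 tumors and at most 0.4 CPM, and was not tested. The 3 tested, Lyve1 (14.0 to 35.1 CPM), Flt4 (4.54 to 5.58 CPM) and Pdpn (35.4 to 66.2 CPM), were found in every tumor and were not called. Of 11 epithelial markers, 2 fell, Krt8 and Krt18, which stayed above 347 CPM in every tumor. These keratins made up most of the summed RPKM of the list (614 to 756 and 474 to 608 RPKM). The median log2 fold change of the list was 0.11, and the other 9 markers were not called. Of those, Epcam, Krt7 and Cldn3 were each above every vehicle-treated tumor in 5 of 6 treated tumors, and Cldn4 was below in all 6. Epcam was at most 10.3 CPM, Krt7 at most 3.01 CPM and Cldn3 at most 1.45 CPM, and the basal keratins Krt5 and Krt14 were at most 1.77 CPM. Of 8 proliferation markers, 3 fell (447 to 599 and 322 to 456 RPKM). Fibroblast markers summed to 451 to 745 RPKM in vehicle-treated and 559 to 1307 RPKM in treated tumors, with 2 of 9 rising, and the 5 pericyte markers gave no call. Among the rarer types, 4 of 5 NK cell markers, 6 of 6 mast cell markers and 2 of 4 B cell markers tested rose. Mast cell markers had sums of 11.9 to 27.8 RPKM in vehicle-treated and 28.2 to 298 RPKM in treated tumors. The B cell markers Ms4a1, Pax5 and Cr2 and the muscle marker Myh4 were at 0 in some tumors. Of 5 Schwann and glial markers tested, 1 fell (13.7 to 15.0 and 5.98 to 12.5 RPKM), and none of the 6 adipocyte or 5 skeletal muscle markers were called. The adipocyte sums still differed, at 54.6 to 93.3 RPKM in vehicle-treated and 82.1 to 454 RPKM in treated tumors. In 5 of 6 treated tumors this sum was above every vehicle-treated tumor. The muscle sums were 6.01 to 14.1 and 4.36 to 11.0 RPKM.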

How the data were processed

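RNA of 9 tumor pieces (1 library each) was prepared with a stranded messenger RNA protocol and sequenced from both ends with 50 cycles, and only tumors with sufficient RNA quality had been kept. The authors aligned the reads to mm9 with STAR, kept reads with a single alignment, counted with QuasR the reads that start in an exon of a RefSeq gene, and deposited raw counts without normalization, with a gene length in bases.

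Here the counts were fitted in R 4.3.3 by the quasi-likelihood method of edgeR (4.0.16), with treatment as the sole term, TMM factors and the filterByExpr limits of 10 counts per gene and 15 in total, and p-values were adjusted over 13966 genes (Benjamini-Hochberg). In simulated counts with 2-fold changes put into 200 genes, the test recovered most of the changed genes, which was set as a condition for going on. Every simulated gene was given the same spread between tumors beyond counting error. The simulation therefore does not show how well genes that vary more, such as Sema6a, are recovered. Smaller changes, such as those of several called members, were not simulated. RPKM used the deposited length. Symbols came from RefSeq (18700 of 18755 genes), positions from a GENCODE annotation of NCBIM37, the assembly of mm9, and promoters from RefSeq on GRCm38.p6. Of 187 entries in the other lists, 3 had no gene in the counts.

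Members, lists and rules were chosen with earlier results of these data known. Every member is accounted for. Called members and the 5 highest by RPKM have a value per vehicle-treated tumor and the lowest, median and highest of the treated tumors. The 3 genes of smallest p per direction were named from each pathway list. Markers are named in exception to this rule. The labels do not say outright that each tumor came from its own mouse, and the p-values treat the samples as independent. Samples were numbered within groups in deposition order.

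Alternatives were scaling by RLE or by total counts alone, testing without the filter, at least 1 CPM in 3 tumors, edgeR's likelihood ratio test, DESeq2 1.42.0, limma-voom (limma 3.58.1), a 2-fold limit, CPM in place of RPKM, leaving out each tumor, and, chosen after seeing the data, counts thinned to the smallest library.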

Additional observations from a re-analysis of the deposited data

Results flagged for a closer look

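Sema6a in BI replicate 3, at 26.3 CPM, stood apart from the other 5 treated tumors, the next of which had 16.3 CPM: the gap was 0.635 of the range of the 6 treated tumors, above the limit of 0.625 in Dixon's test. With both ends of 31 members examined, this was the only value past the limit, and chance alone passes it in about 1 of 20 groups. With that tumor left out, Sema6a still rose, with a log2 change of 1.52.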

How the results depend on the processing

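The calls of Sema3e, Sema4a, Sema4f, Sema4g, Sema6a, Nrp1 and Nrp2 held under all 17 alternative fits, and no called member changed sign. With each tumor left out in turn, 8 to 13 members were called in all, 4 to 7 rising and 3 to 6 falling, 7 or 8 passed the cutoffs of the study, and 9 to 12 had no overlap. The fewest, 8 in all and 4 rising, came without vehicle replicate 3, where Sema7a, Plxnb3 and Plxnd1 were lost. A 2-fold limit with the adjusted p left 4 members. Without BI replicate 2, Sema4b and Plxnb1 passed (adjusted p = 0.0462 and 0.0481 from edgeR, with up to 0.609 and 0.357 under other alternatives). Ranked by CPM without length, 4 of the 5 highest members were shared. Thinning all tumors to the smallest library left the count of called members at 11. The cause of these changes was not tested. Members with few counts, such as Sema3c, Sema3d and Sema5b, had standard errors too wide, or counts too low, to show a moderate change. No paired analysis was possible because the labels give no replicate number that ties a vehicle-treated to a BI 853520-treated tumor.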
